A study of Mus musculus with 8 samples.

Results

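The genes described here encode 10 feedback inhibitors of the ERK pathway: the dual-specificity phosphatases Dusp1, Dusp2, Dusp4, Dusp5, Dusp6 and Dusp10, the Sprouty proteins Spry1 and Spry2, and the Spred proteins Spred1 and Spred2. They were taken by name, and all 10 were found among the 19937 genes with a probe set of their own. Of these, 9 have a single probe set, and Spred2 has a second, dimmer one. The RNA came from regulatory T cells (Tregs), a CD4+ lineage that holds immune responses in check. IIKO chimeras were CD3ε-/- mice, lethally irradiated and given marrow from IIKO donors, which lack an MHC class II gene not named in the labels. WT chimeras were the same recipients given wild-type marrow. Recipients of both groups therefore lacked CD3ε, a part of the T cell receptor (TCR), and could not form T cells of their own. Per the labels, peripheral Tregs of IIKO chimeras lack the interaction of their TCR with MHC class II, and the mice were C57BL/6, 6 to 8 weeks old. At 28 days CD4+ TCRβ+ CD25+ cells from lymph nodes and spleen were sorted, and 100 ng of RNA per sample went onto 1 Affymetrix array, with 4 arrays per group. These are named as biological replicates, with no count of mice behind each.

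When the TCR is engaged, RAS activates the kinases RAF, MEK and ERK in turn, and ERK drives the transcription of early response genes. Among these genes are brakes on the pathway itself. Dual-specificity phosphatases remove the activating phosphates from MAP kinases, while Sprouty and Spred proteins act further up, on RAS and RAF. In T cells the transcripts of some of these genes are used as a readout of recent ERK signalling. Dusp10, listed with them, acts mainly on p38 and JNK.

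The sorted cells carried Foxp3 and transcripts of their gate. Foxp3, the transcription factor of Tregs and not part of the gate, was at 10.68 ± 0.12 in IIKO and 10.63 ± 0.04 in WT chimeras (log2, SD, n = 4 arrays each). Cd4 was at 10.75 ± 0.07 in IIKO and 10.62 ± 0.07 in WT chimeras (limma, Benjamini-Hochberg adjusted p = 0.289). Cd3e was at 11.87 ± 0.03 and 11.90 ± 0.07 (limma adjusted p = 0.801). Il2ra, which encodes CD25, was at 12.06 to 12.25 on the IIKO arrays and 11.95 to 12.06 on the WT arrays (limma, Benjamini-Hochberg adjusted p = 0.211). Its groups did not overlap, as for 2.83% of all genes with IIKO higher. Of the class II chains, H2-Eb1 was at 7.60 ± 0.10 in IIKO and 8.29 ± 0.15 in WT chimeras (limma adjusted p = 0.00746). H2-Aa was at 7.42 ± 0.52 in IIKO and 8.19 ± 0.14 in WT chimeras, and H2-Ab1 at 7.53 ± 0.56 and 8.24 ± 0.25; both overlapped between the groups and did not pass (limma adjusted p = 0.166 and 0.207). On IIKO array 3 these chains were at 8.06 and 8.27, within the range of the WT arrays. The labels do not say which class II gene the donors lack. Mean levels of 5 B cell markers ran from 6.17 to 6.27 on the IIKO arrays and from 6.08 to 6.40 on the WT arrays. For 8 myeloid and dendritic cell markers the ranges were 5.99 to 6.42 and 6.03 to 6.24, with the highest mean on IIKO array 3. For 6 NK and CD8 T cell markers they were 6.47 to 6.53 and 6.46 to 6.78. Of these 6, 1 was higher and 2 were lower in IIKO at an unadjusted p under 0.05 (all genes, 5.27% and 12%). None of them passed the adjusted test. The higher one was Klrd1, at 6.49 ± 0.27 in IIKO and 6.09 ± 0.31 in WT chimeras (limma adjusted p = 0.252). The lower ones were Cd8a and Gzma. Gzma, singled out after its values were seen, was at 8.46 to 8.72 in IIKO and reached 10.08 and 9.77 on WT arrays 2 and 3 (limma adjusted p = 0.218). In sorted bulk samples fewer cells of a type and less RNA per cell cannot be told apart, and the part of these other cells in the results was not tested.

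None of the 10 inhibitors differed between IIKO and WT Tregs past the test used for all genes (limma, Benjamini-Hochberg adjusted p under 0.05), which called 0.286% of the genes. Their adjusted p values lay between 0.206 for Dusp6 and 0.801 for Dusp4. Without adjustment, 3 of the 10 were higher in IIKO Tregs at p under 0.05, namely Dusp5, Dusp6 and Spred1, and 0 were lower. At that limit, 17.3% of all genes were found, 5.27% higher and 12% lower. Differences were positive for 6 members and negative for 4, ranging from -0.14 for Spred2 to 0.29 for Spred1 (IIKO minus WT, log2). The median difference of the members was 0.11, against -0.04 over all genes; it was 0.06 without WT array 3, and also when genes on chromosomes 7 and 17, Dusp1 among them, were left out. Of the 10 members, 9 were brighter than the median gene (7.10), and among such genes the median difference was 0.01, 53.7% of differences were positive and 8.95% of genes were higher at an unadjusted p under 0.05. The 95% confidence intervals of the 10 members, each taken singly, all lay between -0.46 and 0.53. At their ends these intervals allow a level up to 1.45-fold higher or 1.38-fold lower, so a 2-fold difference lay outside the interval of every member.

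**Figure D1:**
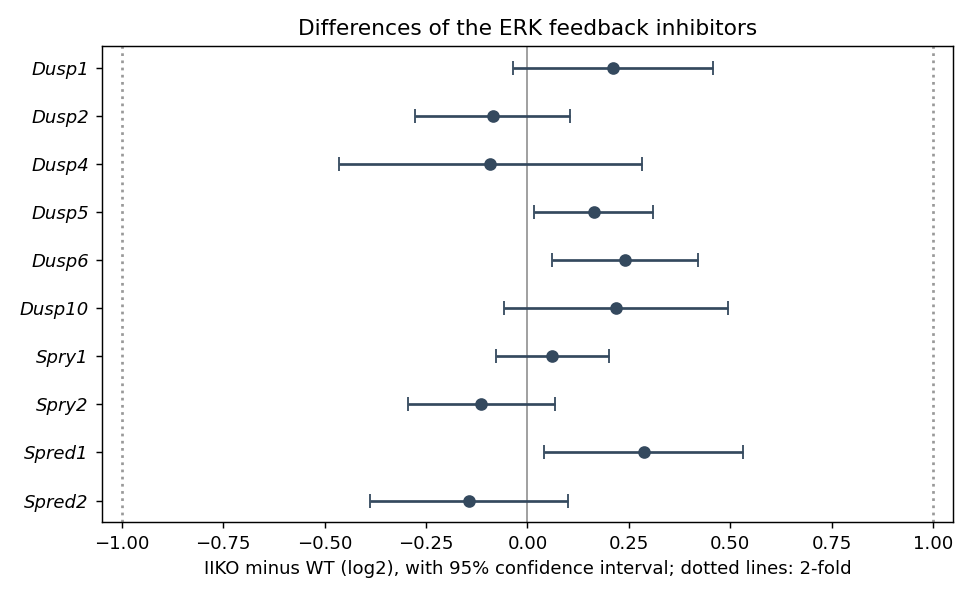
Difference between IIKO and WT Tregs for the 10 inhibitors (log2, points) with limma's 95% confidence intervals (bars). The intervals of Dusp5, Dusp6 and Spred1 lie above 0, those of the other 7 hold 0, and all stay inside the dotted 2-fold lines.

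The promoters of 3 phosphatases are shown because they differ in matches to response elements through which early response genes are known to be induced. They are the 250 bases before the annotated start (RefSeq, GRCm38.p6), 5′ to 3′ on the gene's strand, with matches to the motifs below in capitals. Dusp1 is at chr17:26508473-26508722 on the minus strand, Dusp5 at chr19:53528895-53529144 on the plus strand and Dusp6 at chr10:99262981-99263230 on the plus strand.
Dusp1: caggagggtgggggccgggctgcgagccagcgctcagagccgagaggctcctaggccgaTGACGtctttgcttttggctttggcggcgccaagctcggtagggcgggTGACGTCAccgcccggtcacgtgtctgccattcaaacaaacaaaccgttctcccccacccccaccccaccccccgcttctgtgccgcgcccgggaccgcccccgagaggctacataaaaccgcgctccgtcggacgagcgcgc
Dusp5: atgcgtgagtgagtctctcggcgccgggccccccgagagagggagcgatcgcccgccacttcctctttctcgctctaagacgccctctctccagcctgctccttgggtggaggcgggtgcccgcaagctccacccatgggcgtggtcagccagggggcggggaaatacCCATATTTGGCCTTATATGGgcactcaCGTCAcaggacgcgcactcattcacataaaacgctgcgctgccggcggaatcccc
Dusp6: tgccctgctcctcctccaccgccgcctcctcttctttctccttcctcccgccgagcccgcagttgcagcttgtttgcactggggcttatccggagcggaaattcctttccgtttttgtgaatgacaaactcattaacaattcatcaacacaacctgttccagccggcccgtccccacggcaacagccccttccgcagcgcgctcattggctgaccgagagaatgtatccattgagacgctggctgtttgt

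Of the 10 members, 9 were matched to such a window. Both strands were searched for the cAMP response element TGACGTCA, its half-site TGACG, which also lies within the full element, the AP-1 site TGANTCA, the ETS site CCGGAAG and the CArG box bound by serum response factor. The full cAMP response element was in 1.55% of the 32851 windows of all genes, and among the members in Dusp1 alone, 143 bases before the start. The half-site was in 17.8% of windows and in 3 members, Dusp1, Dusp5 and Spred2. The CArG box was in 1.47% of windows and, of the members, in Dusp5 alone, which has 2 side by side, starting 82 and 72 bases before the start. Matches to the AP-1 and ETS letters given above, in 6.75% and 6.91% of all windows, were in 0 of the 9. The Dusp6 window held no match to any of the motifs as searched. Other forms of these sites were not searched, so the windows cannot be said to lack them. The 3 promoters printed were picked because their motifs differ. A link between motifs and the differences of the members was not tested.

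Among the phosphatases, Dusp6 and Dusp5 are the members most selective for ERK. Dusp6, the cytoplasmic ERK phosphatase MKP-3, had log2 values of 7.44, 7.63, 7.43 and 7.39 on IIKO arrays 1 to 4, against 7.25, 7.38, 7.05 and 7.24 on WT arrays 1 to 4. All 4 IIKO arrays lay above all 4 WT arrays, but the lowest IIKO array, at 7.387, was next to the highest WT array, at 7.382. Separation of this kind, with IIKO higher, was found for 2.83% of all genes, and Dusp6 was the 1 member that showed it. The difference of 0.24 ± 0.08 (SE) is 1.18-fold (limma adjusted p = 0.206). Dusp6 kept an unadjusted p under 0.05 whichever array was left out.

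Dusp5, a nuclear phosphatase for ERK, was at 8.23, 8.17, 8.25 and 8.11 in IIKO and 8.18, 8.00, 7.96 and 7.96 in WT Tregs. WT array 1 stood among the IIKO arrays, and the other 3 WT arrays lay below all of them. The difference was 0.16 ± 0.07 (SE; limma adjusted p = 0.249). With 1 array left out, Dusp5 had an unadjusted p under 0.05 only in the fits without IIKO array 2, IIKO array 4 or WT array 1, and Spred1 only in those without IIKO array 2, WT array 1 or WT array 2. Without IIKO array 1, IIKO array 3 or WT array 3, Dusp6 was the 1 member of 10 under that limit in either direction. In the same fits 12.7%, 13.8% and 15.9% of all genes were under it in either direction. Without WT array 4, Dusp6 (higher in IIKO) and Spred2 (lower in IIKO) were under it, beside 14.6% of all genes in either direction.

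Dusp1, Dusp2 and Dusp4 are nuclear phosphatases that act on ERK and also on the stress kinases p38 and JNK to differing degrees. Dusp1 (MKP-1), an immediate early gene, had values of 11.20, 11.42, 11.14 and 11.37 in IIKO and 11.22, 11.10, 10.74 and 11.22 in WT Tregs. The ranges overlapped, and WT array 3 was lower than every other array by more than 0.3 log2. The difference was 0.21 ± 0.11 (SE; limma adjusted p = 0.346), and without WT array 3 it was 0.10 (adjusted p = 0.548). Dusp1 lies on chromosome 17, which carries the MHC, with 155 tested genes between it and H2-Ab1. When the 20 tested genes on each side of every member were looked up, Dusp1 was the 1 member with a neighbour past the test. This was Pacsin1, which encodes an endocytic adaptor, at 7.88 ± 0.06 in IIKO and 8.26 ± 0.09 in WT Tregs (limma adjusted p = 0.0417). Pacsin1 lies 19 steps from Dusp1 in the order of tested genes, near the edge of the window. It was lower in IIKO Tregs, while the Dusp1 difference was positive. Of all genes, 0.286% passed the same test, but 5 genes passed in place of 57 when those of chromosomes 7 and 17 were left out. Dusp1 is the 1 member on either chromosome, so the share over all genes understates what its neighbours would show.

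Dusp2 (PAC-1), a phosphatase of activated lymphocytes, was at 8.39, 8.23, 8.43 and 8.56 in IIKO and 8.62, 8.30, 8.53 and 8.51 in WT Tregs. The groups overlapped over most of their range, and the difference was -0.09 ± 0.09 (SE; limma adjusted p = 0.621). With 1 array left out it lay between -0.15 (without WT array 2) and -0.03 (without IIKO array 2). Dusp4 (MKP-2) was at 8.44, 8.77, 8.40 and 8.15 in IIKO and 8.65, 8.88, 8.50 and 8.09 in WT Tregs. It had the widest spread of the members, with an SD of 0.25 in IIKO and 0.33 in WT chimeras, and in both groups array 2 was highest and array 4 lowest. Its difference of -0.09 ± 0.17 (SE; limma adjusted p = 0.801) was smaller than either SD and turned positive without IIKO array 4 (0.01) or WT array 2 (0.02).

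Dusp10 (MKP-5) belongs to the family by structure but acts mainly on p38 and JNK rather than on ERK. Its values were 9.55, 9.54, 9.15 and 9.09 in IIKO and 9.30, 9.21, 8.97 and 8.97 in WT Tregs. Within each group, arrays 1 and 2 were higher than arrays 3 and 4, and IIKO arrays 3 and 4 lay below WT arrays 1 and 2. The difference of 0.22 ± 0.12 (SE; limma adjusted p = 0.381) was thus smaller than the spread between the IIKO arrays, and it was 0.14 without IIKO array 1.

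**Figure D2:**
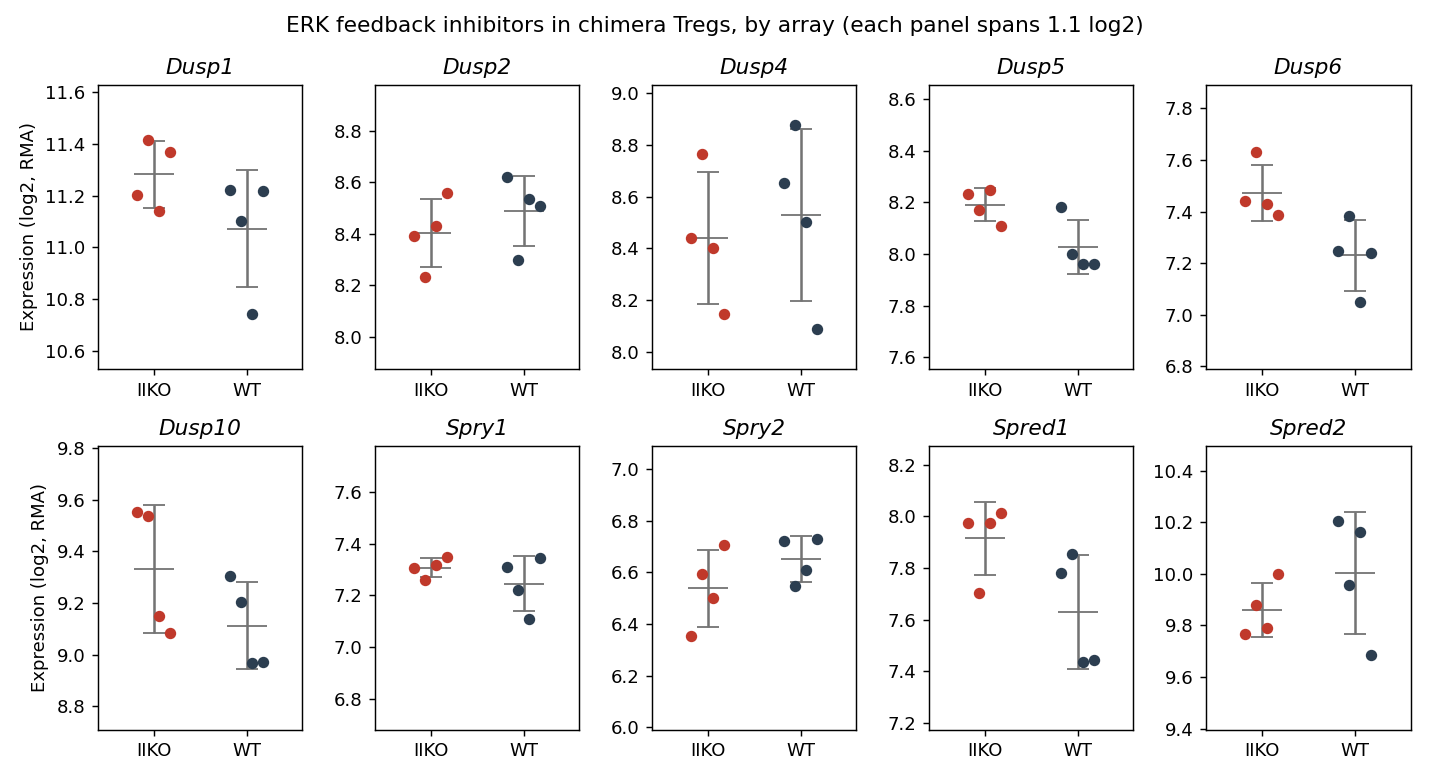
Log2 expression of the 10 inhibitors on each array (points), IIKO left and WT right, with the mean and SD of 4 arrays (grey). Each vertical axis spans 1.1 log2. The groups are apart for Dusp6 alone, and barely so.

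Both Sprouty genes overlapped between the groups. Spry1, an inhibitor of RAS activation downstream of antigen and growth factor receptors, was at 7.30, 7.26, 7.32 and 7.35 in IIKO and 7.31, 7.22, 7.11 and 7.35 in WT Tregs. The 4 IIKO arrays lay within the range of the WT arrays except for the highest, which exceeded the highest WT array by less than 0.01. Spry1 differed by 0.06 ± 0.06 (SE; limma adjusted p = 0.626), with an interval of -0.08 to 0.20, and by 0.02 without WT array 3. Spry2, its close relative, was at 6.35, 6.59, 6.50 and 6.71 in IIKO and 6.72, 6.55, 6.61 and 6.73 in WT Tregs. Its IIKO arrays reached lower but overlapped the WT arrays, with a difference of -0.11 ± 0.08 (SE; limma adjusted p = 0.480), which lay between -0.17 (without IIKO array 4) and -0.05 (without IIKO array 1) with 1 array left out. Spry2 is the 1 member dimmer than the median gene, and 20.5% of such genes had positive differences.

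Spred1 and Spred2, membrane proteins of which Spred1 brings the RAS inhibitor neurofibromin to RAS, had differences of opposite sign. Spred1 was at 7.97, 7.70, 7.97 and 8.01 in IIKO and 7.78, 7.85, 7.44 and 7.44 in WT Tregs. Of the IIKO arrays, 3 lay above every WT array, while IIKO array 2 lay among the WT arrays, which were themselves divided into a higher and a lower pair. The difference of 0.29 ± 0.11 (SE), 1.22-fold, was the largest of the 10 and did not pass (limma adjusted p = 0.236). Spred2 was at 9.77, 9.88, 9.79 and 10.0002 in IIKO and 10.21, 9.96, 10.16 and 9.69 in WT Tregs, a difference of -0.14 ± 0.11 (SE; limma adjusted p = 0.507). WT array 4 was lower than every IIKO array, and the other 3 WT arrays were above 3 of the 4 IIKO arrays. The second probe set of Spred2 gave 9.83 ± 0.11 in IIKO and 9.81 ± 0.19 in WT Tregs (SD, n = 4 arrays each), a difference of 0.02, so the 2 probe sets disagreed in sign. For the brighter one, the difference was -0.08 without WT array 1 and -0.25 without WT array 4.

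The members did not vary as 1 block across the arrays. WT array 3 was the lowest of the 8 arrays for 5 members (Dusp1, Dusp6, Dusp10, Spry1 and Spred1) and WT array 4 for 3 (Dusp4, Dusp5 and Spred2). The highest array was an IIKO array for 6 members and a WT array for 4. Taken as deviations from each gene's mean, the members' median was lowest on WT array 3, at -0.16, followed by WT array 4, at -0.13. It was highest on WT array 1, at 0.08, so the WT arrays held both ends of the range. The IIKO arrays lay between -0.03 and 0.07. The same median over 18 transcripts that respond to ERK was also lowest on WT array 3 (-0.07) and highest on WT array 1 (0.06). Of the pathway lists below, WT array 1 was also highest for the other MAP kinase phosphatases (0.04) and the atypical phosphatases (0.05). That array was lowest for the other inhibitors of RAS and ERK (-0.03), and the cascade was lowest on WT array 4 (-0.07).

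**Figure D3:**
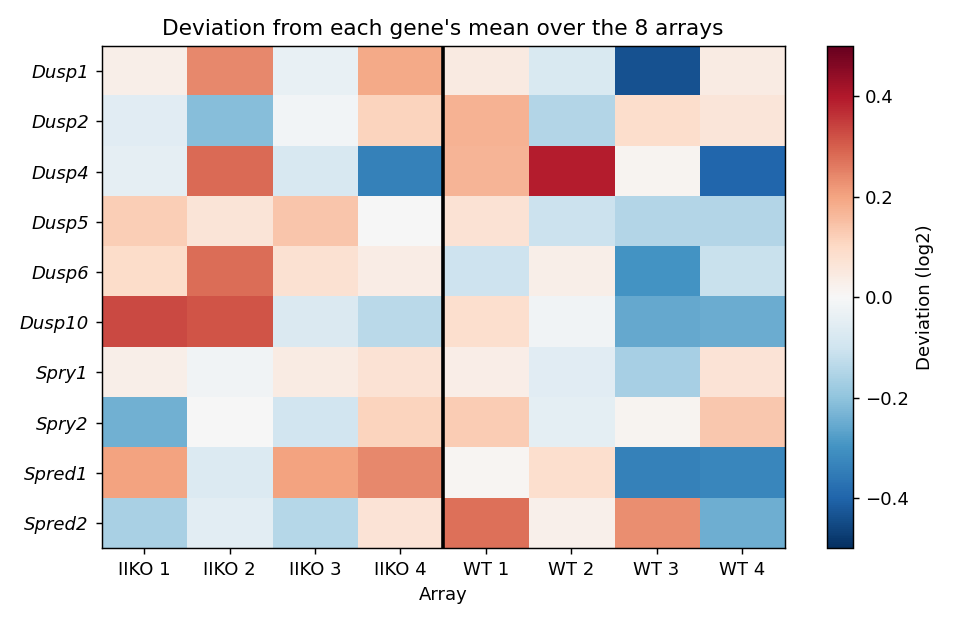
Deviation of each inhibitor from its own mean over the 8 arrays (log2, colour), IIKO arrays left of the black line and WT arrays right. WT array 3 is the lowest array for 5 members, and Dusp4 is high on array 2 and low on array 4 in both groups.

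The rest of the pathway was read from 8 lists with 97 measured genes, of which 0 passed limma's test over all genes. At an unadjusted p under 0.05 there were 19 of the 97, against 17.3% of all genes. Further phosphatases of MAP kinases had 1 of 8 higher and 1 lower at that limit. These were Dusp16, a phosphatase for JNK and p38 (7.98 ± 0.13 in IIKO and 7.71 ± 0.22 in WT Tregs, SD, n = 4 arrays each), and Ptprr, a receptor-type phosphatase for ERK (5.95 ± 0.10 and 6.11 ± 0.06). The other Sprouty and Spred genes had 0 of 3 at that limit and 3 negative differences, from -0.13 to -0.11. All 3 are dimmer than the median gene (7.10), and 20.5% of such genes had positive differences. The smallest p values were those of Spred3 (limma adjusted p = 0.333) and Spry4 (0.365). Atypical dual-specificity phosphatases, which lack the MAP kinase docking domain, had 2 of 13 higher and 2 lower. Dusp28 was lowest in p, at 7.26 ± 0.13 in IIKO and 7.47 ± 0.07 in WT Tregs (limma adjusted p = 0.215). Dusp12 followed, with a difference of 0.25 ± 0.09 (SE, limma adjusted p = 0.223).

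Upstream, the activators of RAS had 3 of 12 genes higher and 1 lower at an unadjusted p under 0.05, a limit at which 5.27% of all genes were higher and 12% lower. Sos1 and Sos2, the exchange factors that load RAS with GTP, were at 8.63 ± 0.05 and 8.91 ± 0.07 in IIKO, against 8.41 ± 0.11 and 8.73 ± 0.05 in WT Tregs (SD, n = 4 arrays each). The groups were apart for both, as for 2.83% of all genes with IIKO higher (limma adjusted p = 0.181 and 0.189). Of 18 listed genes of the cascade itself, 11 were measured and the others were not analysed here. Rras differed by 0.28 ± 0.07 (SE) and Rras2, another RAS-related GTPase, by -0.31 ± 0.10 (limma adjusted p = 0.160 and 0.206), and both lie on chromosome 7. Other inhibitors of RAS and ERK had 0 of 15 higher and 1 lower, Rasal2, a GTPase-activating protein (-0.17 ± 0.07, SE; limma adjusted p = 0.250). The RAF inhibitor Pebp1 differed by -0.18 ± 0.08 (limma adjusted p = 0.295).

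Downstream, transcripts that respond to ERK had 2 of 18 genes higher and 1 lower at the same limit (all genes, 5.27% and 12%), with a median difference of 0.03. Ier3, an early response gene on chromosome 17, was at 6.72 ± 0.21 in IIKO and 7.13 ± 0.11 in WT Tregs (SD, n = 4 arrays each, limma adjusted p = 0.145). Ier5, another early response gene, was at 8.40 ± 0.15 in IIKO and 8.14 ± 0.05 in WT Tregs (limma adjusted p = 0.178). The p38 and JNK pathway, on which Dusp1 and Dusp10 act, had 1 of 17 higher and 2 lower. Gadd45a, an activator of the p38 and JNK cascades, differed by 0.26 ± 0.07 (SE) and the JNK gene Mapk10 by -0.19 ± 0.05 (limma adjusted p = 0.165 and 0.167). List medians ran from -0.12 to 0.07. The lowest was that of the other Sprouty and Spred genes, which are dimmer than the median gene. The cascade and the p38 and JNK pathway had the highest. The median of the 10 inhibitors was 0.11 (0.06 without WT array 3).

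**Figure D4:**
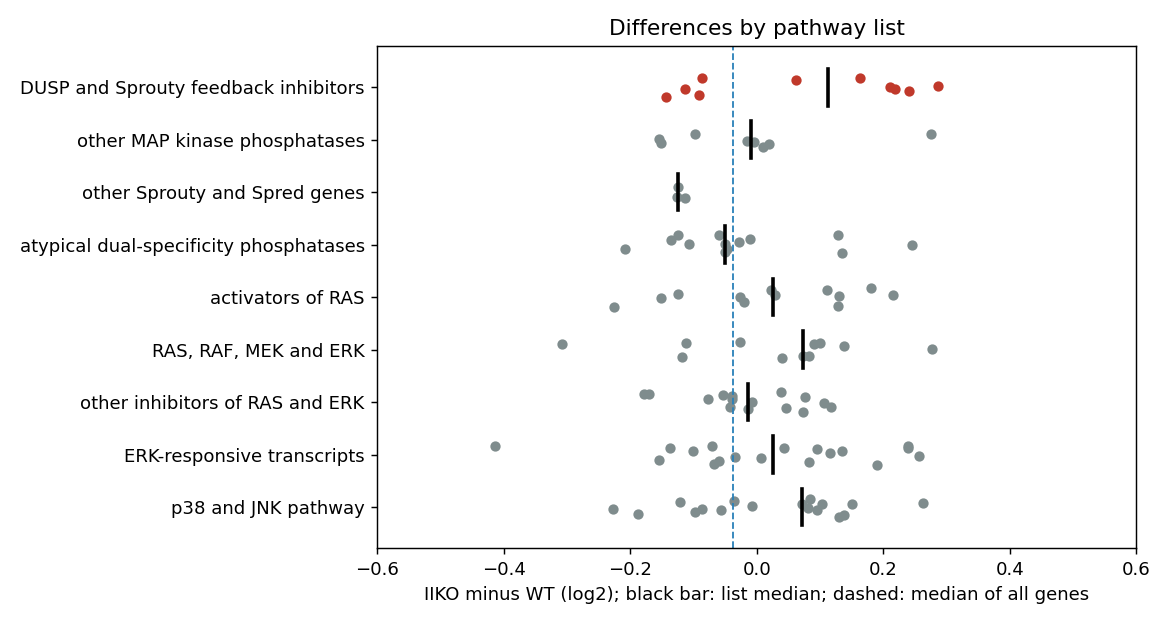
Difference between IIKO and WT Tregs (log2) of each measured gene (points), with the 10 inhibitors in red, the 8 pathway lists in grey, the list medians as black bars and the median of all genes as a dashed line. Points of every list lie on both sides of 0 except the 3 other Sprouty and Spred genes. Those are all below 0 and all dimmer than the median gene. Of the genes shown, 0 passed the test.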

How the data were processed

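The table deposited by the authors holds log2 values per probe set for 8 arrays; the submitters' processing notes name affy and RMA (background correction, quantile normalization, probe summary), and no version is given in the sources used here. Depth has no meaning for arrays, and their number, 4 per group, limits precision. Array medians over 34760 probe sets were 6.96 to 7.03. Over the genes tested, they were 7.04 to 7.10 on the IIKO arrays and 7.11 to 7.14 on the WT arrays. All 4 IIKO medians thus lay below all 4 WT medians. Probe sets with exactly 1 symbol in the platform annotation (21640) were used, the brightest per gene, leaving 19937 genes with no filter on dim ones. IIKO was compared with WT over all genes with limma 3.58.1 in R 4.3.3 (lmFit, eBayes, two-sided, Benjamini-Hochberg, threshold 0.05), and the fit was tested on simulated data. The labels do not say from how many mice each sample came, so p-values cover only the spread between samples. Chromosomes and gene order came from a GRCm38.p6 gene table, and promoters from RefSeq. The members, lists and tests were chosen with earlier results of these data known. Named genes are the 10 members, the 2 genes of smallest p in each list, checks of the sort and of class II, and changed neighbours of members. The promoters printed were picked by hand. Same-numbered arrays were checked for pairing: 1 of 4 pairs had correlated deviations (r over 0.1), so the arrays were not treated as paired.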

Additional observations from a re-analysis of the deposited data

Results flagged for a closer look

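Spred1 in the IIKO chimeras had 1 array far from the others: IIKO array 2 was at 7.70 (log2), while the other 3 IIKO arrays lay between 7.97 and 8.01. It was the only one of the 20 member and group combinations whose extreme array stood off by more than the 95% limit for 4 values, and chance flags about 1 in 20. On this array Dusp6 was the highest of the 8 arrays, so the array was not low for the members in general.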

How the results depend on the processing

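Over 17 alternatives, 0 members and 0 genes of the pathway lists passed the test, and the lowest adjusted p of a member was 0.164. With 1 array left out, 78 of 80 member differences kept their sign; the exceptions were both of Dusp4, which ran from -0.24 to 0.025. The count of members at an unadjusted p under 0.05 ran from 1 to 3 with 1 array left out, beside 12.7% to 20.3% of all genes, and from 2 to 4 under the other alternatives, beside 14.9% to 17.7%. The median difference of the members lay between 0.06 and 0.16, the lowest value without WT array 3 (0.059) and the highest among the brighter genes. With the replicate number as a block, 31 genes passed in place of 57. In that fit 4 members (Dusp1, Dusp5, Dusp6 and Dusp10) had an unadjusted p under 0.05, and 0 passed. Of the 4 IIKO arrays, only array 4 correlated best with the WT array of its own number (r = 0.22). The count of all genes past the test was 81 after centring each array, 65 when probe sets were averaged by gene, 21 at an adjusted p under 0.01, 5 without the genes of chromosomes 7 and 17, and 32 to 50 with 1 array left out (32 without WT array 1 or IIKO array 2). Centring moved the median difference of all genes from -0.04 to 0.01. Signal over background could not be examined from summarized values, and Spry2, the dimmest member, is the most exposed to this. Dusp6 (7.47 in IIKO, 7.23 in WT) and Spry1 (7.31 and 7.25) are exposed too. Their means lay below those of the B cell marker Cd79b (7.49 and 7.68), as did the WT mean of Spred1 (7.63). The other B cell markers measured were dimmer than these members.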
